A study of Mus musculus with 10 samples.

Results

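The clustered histone genes of the mouse, here the genes whose symbols begin with Hist1h, Hist2h, Hist3h or Hist4, were 70 of the 48397 gene symbols in the count tables. Their RNA was measured by bulk sequencing in left atria of wild-type mice after sham surgery (Sham, 5 libraries) or after transverse aortic constriction (TAC, 5 libraries), surgery in which a band around the aortic arch makes the left heart pump against a higher pressure. Per the design text the mice were C57BL/6J males, operated on at 2 months of age and sampled 2 weeks later, and the labels name no engineered allele or drug in either group. Whether the 5 libraries of a group stem from 5 mice is not stated, so the p-values rest on differences among libraries that could be partly technical. The 2 descriptions of the material differ: in the design text it is the left appendage, prepared with a TruSeq RNA kit, which selects RNA with a poly(A) tail, and in the sample labels it is the left atrium, prepared with the Nugen Trio low-input kit, which is made for total RNA. Which of the kits made these libraries is not known here.

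Histone genes of this kind encode the linker histone H1 and the core histones H2A, H2B, H3 and H4, around which DNA is wound in the nucleosome. Most are switched on together in S phase, when newly copied DNA must be packaged. Their mRNAs usually end not in a poly(A) tail but in a short stem loop, which stem-loop binding protein (SLBP) and the U7 small nuclear ribonucleoprotein use to form the end of the RNA. Some members also give longer, polyadenylated transcripts that run past the stem loop, mainly in cells that do not divide. A library that selects poly(A) tails would see mostly these longer transcripts. Whether the counts here cover all histone mRNA of a gene is therefore not known.

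All 70 symbols matched 1 gene each of the GENCODE M21 annotation of GRCm38 (mm10). Of these, 67 were protein coding and 3 were pseudogenes. Hist1 held 56 members on chromosome 13, Hist2 held 10 on chromosome 3, Hist3 held 3 on chromosome 11 and Hist4 held 1 on chromosome 6. By class there were 6 H1, 20 H2A, 19 H2B, 12 H3 and 13 H4 members. The annotated RNA was a single exon block for 65 of them.

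The stem loop was found in an annotated transcript of 46 members as 16 bases with a 6-base-pair stem and a 4-base loop. It is shown because the members with many counts and those with few differed in the RNA annotated downstream of it. One form was carried by 26 members of the classes H1, H2A, H2B and H3, and another by 7 H4 members. The sequences below are those of the 9 members that passed the count filter and held a match, written as DNA from 5′ to 3′ with T for U, with the stem loop in capitals and 5 bases on each side, from GENCODE M21 transcripts.
Hist1h1c: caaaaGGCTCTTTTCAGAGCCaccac
Hist1h1d: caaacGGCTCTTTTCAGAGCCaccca
Hist1h1e: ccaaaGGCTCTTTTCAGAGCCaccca
Hist3h2a: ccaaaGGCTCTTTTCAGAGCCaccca
Hist1h2be: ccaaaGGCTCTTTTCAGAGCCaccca
Hist1h2bh: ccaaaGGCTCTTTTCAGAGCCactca
Hist2h3c2: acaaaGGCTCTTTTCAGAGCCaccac
Hist1h4h: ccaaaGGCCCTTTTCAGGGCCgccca
Hist1h4i: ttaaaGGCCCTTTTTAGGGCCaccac
The 7 members of the classes H1, H2A, H2B and H3 shared 1 stem loop, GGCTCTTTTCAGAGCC. The 2 H4 members had other forms, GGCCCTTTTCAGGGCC in Hist1h4h and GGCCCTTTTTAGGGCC in Hist1h4i. Of the members that passed, Hist1h2bc and Hist2h2be had no match in their annotated transcripts.

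Most clustered histone genes were barely counted in the atrium. Of the 70 members, 11 passed the filter on low counts, which asked for about 0.309 CPM (counts relative to library size) in at least 5 libraries. Of the 59 others, 14 had no count in any library, 24 had 1 to 10 counts over the 10 libraries together, and 21 had more, up to 75. These counts come from libraries of 17117306 to 43956384 counts, and a count of 0 allows up to 3 counts in a library, counting error only. The 11 members that passed took 98.8% of the summed CPM of all members in Sham and 98.6% in TAC. Hist1h1c alone took 58.1% and 64.1%. Of the 11, 9 were above the filter's level in every library of both groups, while Hist1h1d was so in 4 Sham and 5 TAC libraries and Hist1h2bh in 3 and 2.

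The members that passed differed from the others in how much RNA is annotated beyond the stem loop. At least 300 bases followed it in 8 of the 9 members that passed and held a match, against 10 of 37 among the others. The median was 1153 bases (range 46 to 4884) in the former and 47 (range 3 to 2445) in the latter. Hist1h4h was the exception, with 46 bases. A poly(A) signal (AATAAA or ATTAAA) lay within the last 50 annotated bases of 6 of the 11 members that passed and of 11 of the 59 others. These are descriptions of the annotation, whose ends were not measured here. The whole annotated RNA was also longer, at a median of 1679 bases in the 11 members that passed and 508 in the 59 others. The filter did not scale counts for length, so longer RNA could pass more easily. The part of length in these differences was not tested.

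Sequence shared with other genes limits the counting as well, because reads that fit several genes are usually not assigned. A window counted as shared if a transcript of any other gene held it on either strand. This takes in genes annotated over the member's own exon, which 26 of the 70 members had. Of the 50-base windows of a member's annotated RNA, a median of 71.1% (range 36.5% to 100%) occurred in the transcripts of no other gene for the 11 members that passed, and 39.6% (range 0% to 100%) for the 59 others. Under 50% was unique in 36 members, 1 of which passed. The 5 members with no unique window, Hist2h2aa1, Hist2h2aa2, Hist2h2bb, Hist2h3b and Hist2h3c1, all had 0 counts. Each also shared 100% of its exonic bases with genes annotated at the same place. For these 5, copies elsewhere and overlap in place cannot be told apart. Shared sequence does not describe every low member: 8 of those that did not pass were over 80% unique. The linker histone gene Hist1h1a was 100% unique and had 62 counts in all, and Hist2h4, an H4 gene that was 99.0% unique with 1257 bases after its stem loop, had 41. Reads aligned to several places made up 15.8% of reads in Sham and 13.4% in TAC (exact two-sided permutation p = 0.024), and reads ambiguous between genes 4.31% and 5.79% (p = 0.0079). Their part in the differences below was not tested.

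**Figure D1:**
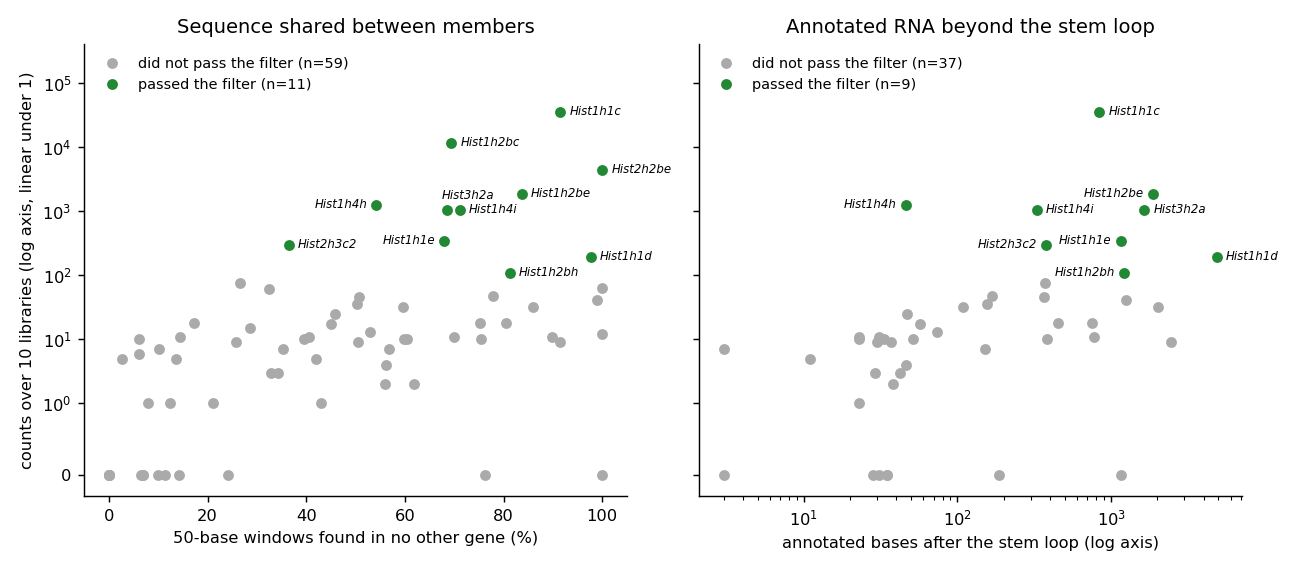
Total counts of each member over the 10 libraries (log axis, linear below 1) against the percent of its 50-base windows found in no other gene (left, 70 members) and against the annotated bases after its stem loop (right, log axis, 46 members). The 11 members that passed the filter (green) have 108 to 34865 counts, and 8 of the 9 with a stem loop have at least 300 annotated bases after it.

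Other facts of the libraries bear on these counts. Depth was 17117306 and 17154462 counts in 2 shallow Sham libraries and at least 29493200 in the other 8, and the groups' means did not differ beyond the spread (p = 0.50, exact permutation test). Most RNAs known to lack a poly(A) tail were scarce. Of 26 such genes with a row, 9 had no count in any library, among them Rnu7, the RNA of the U7 particle, and 4 passed the filter. Malat1, a nuclear RNA whose end is next to an A-rich stretch, was the most abundant, at 145 ± 107 CPM in Sham and 62.7 ± 35.7 in TAC (SD, n = 5). Rn7sk, an abundant RNA polymerase III transcript in cells, was at 4.85 ± 2.10 CPM in Sham and 2.71 ± 0.503 in TAC (SD, n = 5), and was called lower (log2 fold change -0.86, SE 0.30, adjusted p = 0.027). Of the 4 tested genes of this list 1 was lower and 0 higher, with a median log2 fold change of -0.59. Malat1 (-1.22, SE 0.48, adjusted p = 0.0501), Neat1 (-0.32, adjusted p = 0.40) and Rpph1 (-0.19, adjusted p = 0.72) were not called. The list's sum ran from 118 to 386 CPM in Sham and from 46.99 to 165 in TAC. Most of that sum was Malat1, which was at 334 CPM in Sham replicate 4, the highest library. The part of these differences in the members' changes was not tested. The 12 genes listed for atrial muscle were all present and summed to 86782 to 100580 CPM in Sham and 44734 to 58083 in TAC. Myh6 alone averaged 33656 CPM in Sham and 11997 in TAC. Whether each gene is limited to atrial muscle was not tested.

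Among the members that passed, expression went down after TAC or did not pass the test, and none went up. With edgeR's quasi-likelihood test at a Benjamini-Hochberg adjusted p under 0.05 across 15175 genes, 6 of the 11 were lower in TAC and 0 were higher. Of all genes tested 27.9% were lower and 28.9% higher, so that 56.8% were called in one direction or the other. The lower members were Hist1h1c and Hist1h1e (H1), Hist2h2be and Hist1h2be (H2B), and Hist1h4h and Hist1h4i (H4). Of the 11 fitted log2 fold changes 10 were below 0. Their median was -0.66, beside 0.01 for all genes tested. All 5 TAC libraries lay below all 5 Sham libraries in 5 members, against 20.2% of all genes tested, and all lay above in 0, against 21.5%. The groups overlapped in the other 6 members.

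These figures depend on the scaling in level but not in direction for the members with the largest changes. When libraries were scaled by their size alone, the median of all genes moved to 0.37 and that of the 11 members to -0.30. Calls over all genes then split into 7741 higher and 1929 lower, in place of 4383 and 4233, and 4 members were lower and 0 higher. Hist1h1c and Hist1h4i lost their calls under that scaling. All TAC libraries then lay below Sham in 2 members, Hist2h2be and Hist1h4h, in place of 5. A fold change here is relative to the TMM scaling (trimmed mean of M values, which centres the bulk of genes), and fold changes are TAC over Sham.

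**Figure D2:**
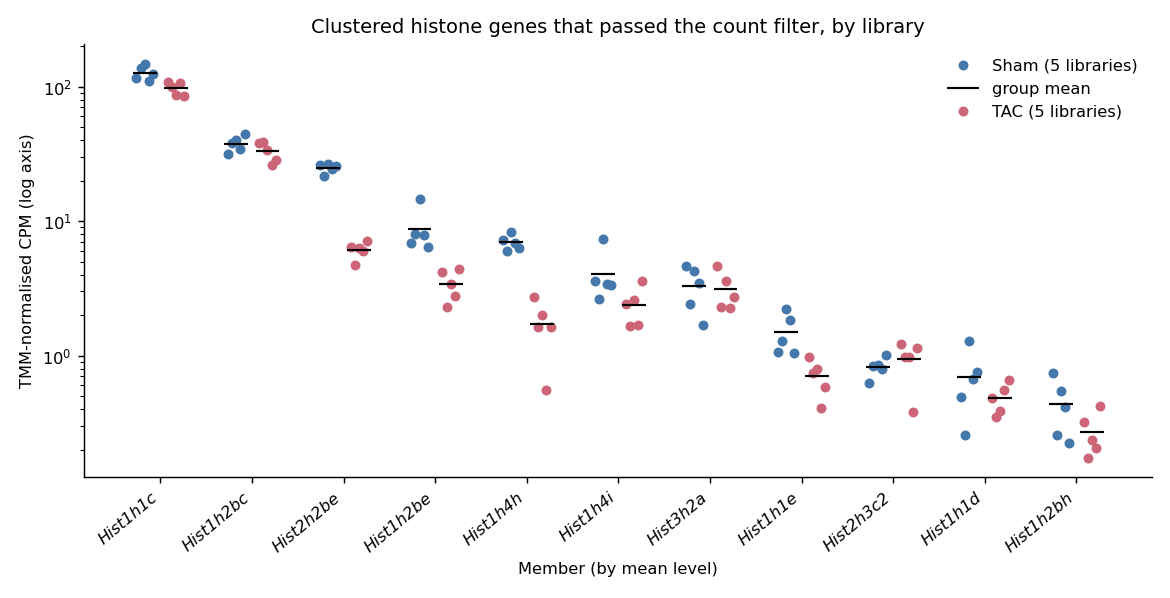
TMM-normalised CPM (log axis) of the 11 members that passed the filter, in each of 5 Sham (blue) and 5 TAC (red) libraries, with the group mean as a line. TAC lies wholly below Sham for Hist1h1c, Hist2h2be, Hist1h2be, Hist1h4h and Hist1h1e, and the groups overlap for the other 6 members.

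H1 linker histones bind the DNA between nucleosomes, and Hist1h1c was the most abundant member, both in CPM and per kilobase of annotated RNA. Hist1h1c (ENSMUSG00000036181, chromosome 13, 23738808 to 23740367, plus strand, 1 exon) stood at 116, 138, 148, 109.9 and 124 CPM in Sham replicates 1 to 5. It stood at 108, 99.5, 86.0, 106 and 85.1 CPM in TAC replicates 1 to 5. All TAC libraries were below all Sham libraries, though the highest TAC and the lowest Sham library were close, at 108 and 109.9. The group means were 127 ± 15.7 and 96.9 ± 10.8 CPM (SD, n = 5). This gave a log2 fold change of -0.39 with an SE of 0.10 (adjusted p = 0.0062), and -0.03 with scaling by library size alone (adjusted p = 0.77).

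Hist1h1e (chromosome 13, 23620629 to 23622558, minus strand) was at 1.06, 1.28, 2.22, 1.86 and 1.05 CPM in the Sham libraries. In the TAC libraries it was at 0.971, 0.747, 0.799, 0.411 and 0.580 CPM, all below Sham. Its log2 fold change was -1.10 (SE 0.30, adjusted p = 0.0080). Of its annotated exon, 25.7% is shared with Hist1h2be and the gene Gm11398 on the same strand, so reads there cannot be assigned to 1 of them. Hist1h1d, another linker histone gene, overlapped between the groups, at 0.256 to 1.28 CPM in Sham and 0.349 to 0.660 in TAC (log2 fold change -0.56, SE 0.36, adjusted p = 0.21). Without the 2 shallow Sham libraries, an alternative chosen after seeing the data, Hist1h1d was called lower (-0.89, adjusted p = 0.049).

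Summed over the 6 H1 members, the level was 112.6 to 152 CPM in Sham and 86.6 to 109.2 in TAC. That sum is nearly all Hist1h1c. Of the H1 members that did not pass, Hist1h1a had 34 counts in Sham and 28 in TAC, and Hist1h1b had 8 and 4. Hist1h1t, the testis linker histone, had 0 counts in all 10 libraries.

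H2A, which pairs with H2B in the nucleosome, was the class with the most members, of which 8 of 20 had no count and 1 passed. Every H2A member shared exonic bases with another gene, mostly one on the opposite strand. The share ran from 9.9% in Hist1h2ac to 100% in Hist2h2aa1 and Hist2h2aa2. With the strand setting not given, how many H2A reads were left uncounted for this reason is not known. Hist3h2a (chromosome 11, 58954685 to 58956830, plus strand) was at 4.66, 2.43, 4.25, 3.48 and 1.69 CPM in Sham. In TAC it was at 4.63, 2.32, 3.61, 2.26 and 2.72 CPM. The groups overlapped over most of their range. Its log2 fold change was -0.09 with an SE of 0.29 (adjusted p = 0.82), and its sign turned under 5 alternatives. Of its exon 33.0% is shared with Trim17 and Gm44313, the first on the same strand and the second on the opposite one. Hist1h2aa, an H2A gene of the male germ line, had 0 counts.

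H2B held 4 members that passed, the most of any class, and the member with the largest change. Hist2h2be (ENSMUSG00000068854, chromosome 3, 96221119 to 96223738, plus strand, 1 exon) is known for polyadenylated transcripts in differentiated cells. It stood at 25.9, 21.8, 26.5, 24.5 and 25.9 CPM in Sham replicates 1 to 5. It stood at 6.43, 4.68, 6.34, 5.99 and 7.07 CPM in TAC replicates 1 to 5. The lowest Sham library was far above the highest TAC library, and the spread within each group was small. The group means were 24.9 ± 1.89 and 6.10 ± 0.884 CPM (SD, n = 5), so that Sham was 4.08 times TAC. On the log2 scale the fold change was -2.03 with an SE of 0.11 (adjusted p = 5.1e-07). The call held under all 21 alternatives, with log2 fold changes from -2.08 to -1.67. All of its 50-base windows were unique to it and no other annotated gene overlapped its exon.

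Hist1h2be also fell, and its counts come from a gene model with a complex structure. Its coding exon lies at chromosome 13, 23583670 to 23585970, minus strand, and is spliced to a first exon at 23620916 to 23621124, inside Hist1h1e. Another transcript, at 23618980 to 23621078, starts inside Hist1h1e, runs past its end and holds no coding sequence. The counts therefore sum RNA of both places. Hist1h2be was at 6.83, 7.99, 14.6, 7.83 and 6.38 CPM in Sham and at 4.19, 2.32, 3.40, 2.79 and 4.41 CPM in TAC. All TAC libraries were below Sham, and Sham replicate 3 was far above the other Sham libraries. The log2 fold change was -1.36 (SE 0.26, adjusted p = 0.00083) and was -1.09 at its smallest when 1 library at a time was left out.

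Hist1h2bc, the second most abundant member, did not pass the test. Hist1h2bc (ENSMUSG00000018102, chromosome 13, 23684199 to 23692908, plus strand, 2 exons) was at 31.4, 38.4, 39.9, 34.4 and 44.4 CPM in Sham. In TAC it was at 38.2, 38.6, 33.7, 26.2 and 28.6 CPM. The groups overlapped, with means of 37.7 ± 5.02 and 33.1 ± 5.57 CPM (SD, n = 5). The log2 fold change was -0.19 with an SE of 0.13 (adjusted p = 0.22), and 0.17 with scaling by library size alone. The H2B genes with the most counts, Hist1h2bc and Hist2h2be, thus had log2 fold changes of -0.19 and -2.03, a difference that was not tested. Hist1h2bh, the lowest of the members that passed, was at 0.225 to 0.745 CPM in Sham and 0.174 to 0.422 in TAC (log2 fold change -0.66, SE 0.38, adjusted p = 0.17).

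Summed over the 19 H2B members, Sham ran from 65.5 to 82.3 CPM and TAC from 35.6 to 49.6. Among the H2B members that did not pass, Hist3h2ba had 31 counts in Sham and 17 in TAC. Hist1h2ba, an H2B gene of the male germ line, had 2 counts, both in 1 TAC library.

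H3 was low throughout. Hist2h3c2 (chromosome 3, 96238108 to 96239127, minus strand), the H3 member that passed, was at 0.621, 0.831, 0.851, 0.799 and 1.01 CPM in Sham. In TAC it was at 1.23, 0.972, 0.977, 0.382 and 1.13 CPM. TAC replicate 4 was the lowest of all 10 libraries, 2 of the other TAC libraries lay above the Sham range and 2 inside it. The log2 fold change was 0.18 (SE 0.30, adjusted p = 0.62). With 36.5% of its windows unique, Hist2h3c2 was the least distinct of the members that passed, and Hist2h3b and Hist2h3c1, H3 genes of the same cluster, had 0 counts. The 12 H3 members summed to 1.30 to 1.99 CPM in Sham and 0.793 to 2.01 in TAC.

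H4 held 2 members that passed, and both were lower in TAC. Hist1h4h (ENSMUSG00000060981, chromosome 13, 23531050 to 23531519, plus strand, 1 exon) is the member with the shortest annotated RNA beyond the stem loop of those that passed. It stood at 7.26, 6.01, 8.36, 6.83 and 6.34 CPM in Sham replicates 1 to 5. It stood at 2.71, 1.62, 2.01, 0.558 and 1.64 CPM in TAC replicates 1 to 5. All TAC libraries were well below Sham, and TAC replicate 4 was the lowest. Sham was 4.06 times TAC, at means of 6.96 ± 0.916 and 1.71 ± 0.779 CPM (SD, n = 5). On the log2 scale Hist1h4h changed by -2.02 with an SE of 0.31 (adjusted p = 0.00018). The call held under all 21 alternatives, with log2 fold changes from -2.23 to -1.68.

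Hist1h4i (chromosome 13, 22040636 to 22041362, minus strand) was at 3.60, 2.62, 7.39, 3.40 and 3.38 CPM in Sham and at 2.41, 1.67, 2.61, 1.70 and 3.56 CPM in TAC. The groups overlapped, since TAC replicate 5 was above 3 of the Sham libraries, and Sham replicate 3 was far above the others. The log2 fold change was -0.78 (SE 0.30, adjusted p = 0.044). The call was lost under 10 of 21 alternatives. Leaving out Sham replicate 3 gave -0.45 (adjusted p = 0.14), and the call also went without Sham replicate 1 (0.054) or TAC replicates 1 (0.074), 2 (0.10), 3 (0.065) or 4 (0.10), as adjusted p.

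Summed over the 13 H4 members, Sham was at 9.07 to 16.2 CPM and TAC at 2.44 to 5.73, a difference of mean log2 levels of -1.39. Hist4h4, the lone gene of its cluster, had 2 counts in Sham and 7 in TAC and did not pass.

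Per kilobase of annotated RNA the order of the members changed, because the long transcripts lost rank. Hist1h1c was first at 81.5 CPM per kilobase in Sham and 62.1 in TAC. Hist1h2bc followed at 32.6 and 28.6, then Hist1h4h at 14.8 and 3.63, Hist2h2be at 9.51 and 2.33, and Hist1h4i at 5.61 and 3.29. The other 6 were below 2 CPM per kilobase in each group. Annotated lengths stand in for the RNA that was present, which was not measured.

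With TMM scaling the sum of all members was lower in every TAC library than in every Sham library, and with library size alone the groups overlapped, at 174 to 223 CPM in Sham and 164 to 179.6 in TAC. With TMM, summed levels of the 70 members were 201.7, 222, 257, 197 and 218 CPM in Sham and 172, 154, 143, 149 and 138 CPM in TAC. The means were 219 ± 23.6 and 151 ± 13.1 CPM (SD, n = 5), a difference of mean log2 levels of -0.53, or -0.17 with scaling by library size alone. Without Hist1h1c the sum ran from 84.4 to 108.6 CPM in Sham and from 42.3 to 64.2 in TAC, and with library size alone from 76.2 to 94.2 and from 48.6 to 67.1, without overlap under either scaling. The 59 members that did not pass summed to 2.56 to 2.81 CPM in Sham and 1.29 to 2.96 in TAC.

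**Figure D3:**
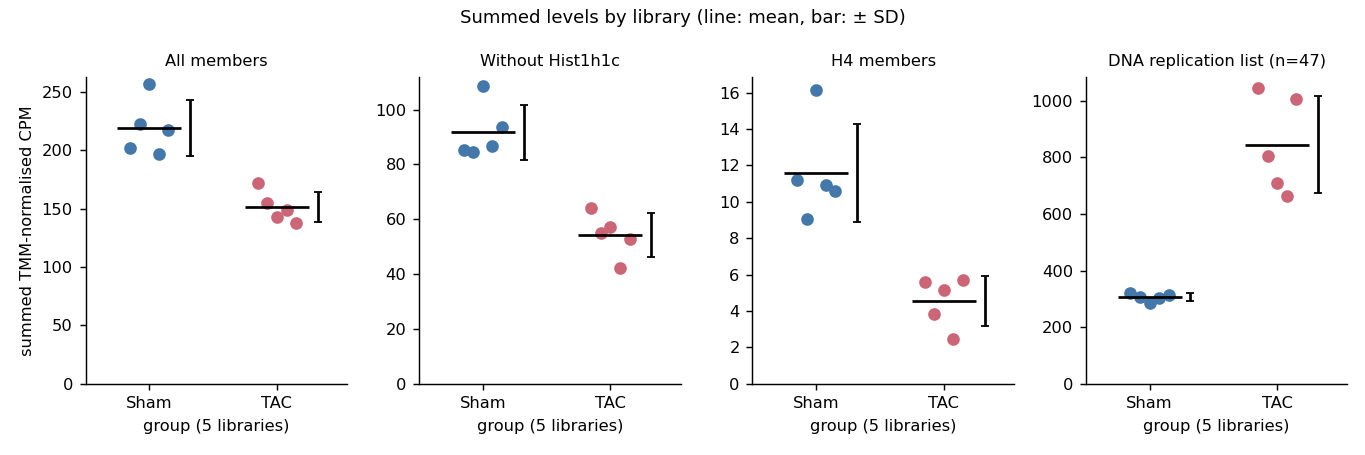
Summed TMM-normalised CPM in each of 5 Sham (blue) and 5 TAC (red) libraries for all 70 members, for the 69 without Hist1h1c, for the 13 H4 members and for the 47 DNA replication genes, with the mean (line) and SD (bar). With this scaling the members' sums are lower in every TAC library than in every Sham library (with library size alone the sum of all 70 overlaps), while the DNA replication sum runs from 284 to 322 CPM in Sham and from 663 to 1045 in TAC.

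Among members too low to test, some had counts in TAC alone. Of the 45 such members with any count, 35 had counts in both groups, 10 (22.2%) in TAC only and 0 in Sham only. Of all 12021 untested genes with 1 to 75 counts, 23.7% had counts in TAC only and 14.1% in Sham only, and the groups held 148996252 (Sham) and 167633616 (TAC) counts in all. The H3 genes Hist1h3b, Hist1h3c and Hist1h3h had 10, 13 and 6 counts in TAC, in 3, 4 and 2 of the 5 libraries. Counts over all these members came to 349 in Sham and 399 in TAC, of which 60 were from Hist1h2al, while their summed level was 2.67 ± 0.0957 CPM in Sham and 2.10 ± 0.71 in TAC (SD, n = 5). These counts are few and lie below the filter of the test.

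H2A and H2B genes often stand back to back and start close together. In GENCODE M21, 14 pairs of members on opposite strands had start sites within 500 bases of each other. In 3 of the pairs 1 member passed and the partner did not. Hist1h2bc was at a mean of 30.6 CPM per kilobase over the 10 libraries and Hist1h2ac, which starts 251 bases away, at 0.0504. Hist2h2be was at 5.92 and Hist2h2ac, 239 bases away, at 0.123. Hist3h2a was at 1.49 and the pseudogene Hist3h2bb-ps, 173 bases away, at 0.0765. The partners were not all indistinct in sequence, with 85.9% of windows unique in Hist1h2ac, 45% in Hist2h2ac and 70% in Hist3h2bb-ps.

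The promoters of 4 of the 6 members called lower are shown. Hist2h2be had no entry among the promoters used, and that of Hist1h1e is not printed. The log2 fold changes of the 4 ran from -0.39 (Hist1h1c) to -2.02 (Hist1h4h). Hist1h1c and Hist1h4i lost their calls with library size alone. Each is the 250 bases before the RefSeq start site on GRCm38.p6, 5′ to 3′ on the gene's strand, with capitals for a match on either strand to the TATA box TATAAA, to the box CCAAT or to the octamer ATTTGCAT that is known from H2A and H2B promoters. The window of Hist1h2be, which has more than 1 RefSeq start, is the one next to its coding exon, within the intron of the spliced transcripts.
Hist1h4h, chr13:23530794-23531043, plus strand: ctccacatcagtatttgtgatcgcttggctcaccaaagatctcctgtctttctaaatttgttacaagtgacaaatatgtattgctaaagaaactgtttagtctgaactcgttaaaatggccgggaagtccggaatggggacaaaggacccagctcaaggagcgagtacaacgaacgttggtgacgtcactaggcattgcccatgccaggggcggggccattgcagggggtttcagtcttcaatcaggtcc
Hist1h4i, chr13:22041363-22041612, minus strand: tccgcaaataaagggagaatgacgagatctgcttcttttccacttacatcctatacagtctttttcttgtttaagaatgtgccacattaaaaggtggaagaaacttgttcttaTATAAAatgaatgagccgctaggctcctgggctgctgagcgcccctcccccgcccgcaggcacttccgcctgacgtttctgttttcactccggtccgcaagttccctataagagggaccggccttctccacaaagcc
Hist1h2be, chr13:23585971-23586220, minus strand: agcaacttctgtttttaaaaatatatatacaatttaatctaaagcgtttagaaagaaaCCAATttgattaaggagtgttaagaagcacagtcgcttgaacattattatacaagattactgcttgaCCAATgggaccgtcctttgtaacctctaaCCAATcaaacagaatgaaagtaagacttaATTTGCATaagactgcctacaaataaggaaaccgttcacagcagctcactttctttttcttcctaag
Hist1h1c, chr13:23738557-23738806, plus strand: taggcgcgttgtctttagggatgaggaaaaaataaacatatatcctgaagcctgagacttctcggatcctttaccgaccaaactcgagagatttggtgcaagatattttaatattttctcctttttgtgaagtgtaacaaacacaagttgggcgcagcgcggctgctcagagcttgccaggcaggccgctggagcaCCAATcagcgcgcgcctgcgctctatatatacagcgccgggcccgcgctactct
The H2B window held 3 CCAAT boxes and 1 octamer, and the other Hist1h2be window, chr13:23621095-23621344, which lies at the first exon inside Hist1h1e and is not printed, held 3 CCAAT boxes and no octamer. Of the other windows, that of Hist1h1c held 1 CCAAT box, that of Hist1h4i held 1 TATAAA and that of Hist1h4h held none of the motifs. No motif was in all 4 printed windows. Part of the Hist1h4h window lies in an exon of Gm11335, a long noncoding RNA gene on the opposite strand.

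Across the 60 members with a single promoter in the RefSeq table, CCAAT was in 81.7% of the windows, against 33.9% of all 32851 promoters. TATAAA was in 48.3% against 12.4%, and ATTTGCAT in 21.7% against 1.60%. In the 8 tested members among them the shares were lower, at 62.5% for CCAAT, 37.5% for TATAAA and 12.5% for ATTTGCAT. The classes differed in these motifs. CCAAT was in every H1, H2A and H2B window, in 80% of H3 and in 25% of H4 windows, and ATTTGCAT was in 7 of 17 H2A and 6 of 15 H2B windows and in none of the others. A match is a description of the letters and not a measured site.

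With TMM scaling, genes that make and handle histone mRNA moved in both directions, as did all genes tested (28.9% higher and 27.9% lower). The list of histone mRNA processing and control held 32 tested genes, of which 14 rose and 7 fell, with a median log2 fold change of 0.12. Slbp, which encodes the protein that binds the stem loop, rose by 0.48 on the log2 scale (SE 0.09, adjusted p = 0.00096), with means of 8.66 ± 0.588 CPM in Sham and 12.1 ± 0.949 in TAC. Npat, the S-phase coactivator of histone genes, rose by 0.35 (SE 0.10, adjusted p = 0.011), with means of 16.1 ± 1.85 and 20.5 ± 2.00 CPM. For both genes all TAC libraries lay above all Sham libraries. The G1-to-S regulators E2f1 (log2 fold change 4.92, SE 0.38), Ccne1 (2.79, SE 0.22) and Ccne2 (2.34, SE 0.22) rose, as did Ccna2 (5.88, SE 0.58), a cyclin of S phase that had the largest log2 fold change of the list and is named here after its value was seen.

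Of the same list, the genes named for their decrease were Mif4gd (log2 fold change -0.52, SE 0.11), which helps translate histone mRNA, Sympk (-0.45, SE 0.09), a scaffold of the 3′ cleavage complex, and Snrpd3 (-0.44, SE 0.09), an Sm protein that is also part of the spliceosome. These decreases depend on the scaling: with library size alone all 3 lost their calls, and the list counted 24 higher and 0 lower.

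Replacement histones are encoded by genes outside the clusters, many of them with polyadenylated mRNAs that are also made outside S phase, and most of those tested rose. Of 11 tested genes 9 were higher and 0 lower, beside 28.9% and 27.9% of all genes tested, with a median log2 fold change of 0.42. H2afz, which encodes H2A.Z, rose by 1.13 on the log2 scale (SE 0.12, adjusted p = 1.3e-05), with means of 25.7 ± 1.56 and 56.3 ± 9.95 CPM. H2afx, whose product marks DNA breaks when phosphorylated, rose by 0.80 (SE 0.13), H2afj by 0.62 (SE 0.12), H3f3a, an H3.3 gene, by 0.30 (SE 0.07) and H1f0, the linker histone of resting cells, by 0.32 (SE 0.08), each on the log2 scale. H3f3b, the second H3.3 gene, was at 130.4 ± 22.7 and 157 ± 22.1 CPM and did not pass (0.27, SE 0.13, adjusted p = 0.092). Summed per kilobase with TMM scaling, the replacement genes were at 188 in Sham and 244 in TAC. The clustered genes were at 153 and 107, of which Hist1h1c made up 81.5 and 62.1. With library size alone the summed CPM of the clustered genes overlapped between the groups. Reads of shared sequence, and any RNA without a poly(A) tail, may be missing from the clustered sum, so the 2 sums cannot be compared in level.

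Chaperones carry histones to DNA. Of 38 tested genes in that list, 18 rose and 6 fell, with a median log2 fold change of 0.20. Among all genes tested 28.9% rose and 27.9% fell. Chaf1a (log2 fold change 2.69, SE 0.19) and Chaf1b (3.58, SE 0.25), subunits of the factor that loads new H3 and H4 behind the replication fork, rose, as did Asf1b (2.89, SE 0.32), which hands H3 and H4 to it, and Oip5 (2.75, SE 0.31), which helps place the centromeric H3. Nap1l5 (log2 fold change -1.65, SE 0.23), Nap1l4 (-0.68, SE 0.09) and Tspyl1 (-0.57, SE 0.06), all of the nucleosome assembly protein family, fell.

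Genes of DNA replication rose widely. Of 47 tested, 42 were higher and 0 lower in TAC, beside 28.9% and 27.9% of all genes tested. The list's median log2 fold change was 1.72. Clspn (log2 fold change 4.44, SE 0.26), Tyms (2.37, SE 0.14) and Lig1 (1.68, SE 0.11), which encode a fork checkpoint mediator, thymidylate synthase and the replicative DNA ligase, were the 3 with the smallest adjusted p. The mitosis list rose in 17 of 17 genes and summed to 10.1 to 40.4 CPM in Sham and 224 to 866 in TAC. The 6 clustered histone genes called were thus lower in the group in which 42 replication genes were higher. Of the 6, Hist1h1c and Hist1h4i lost their calls with library size alone. The other 59 of the 70 members were too low to test, and mRNA that ends at the stem loop may be missing from the counts. Whether histone mRNA of S phase changed was therefore not tested.

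**Figure D4:**
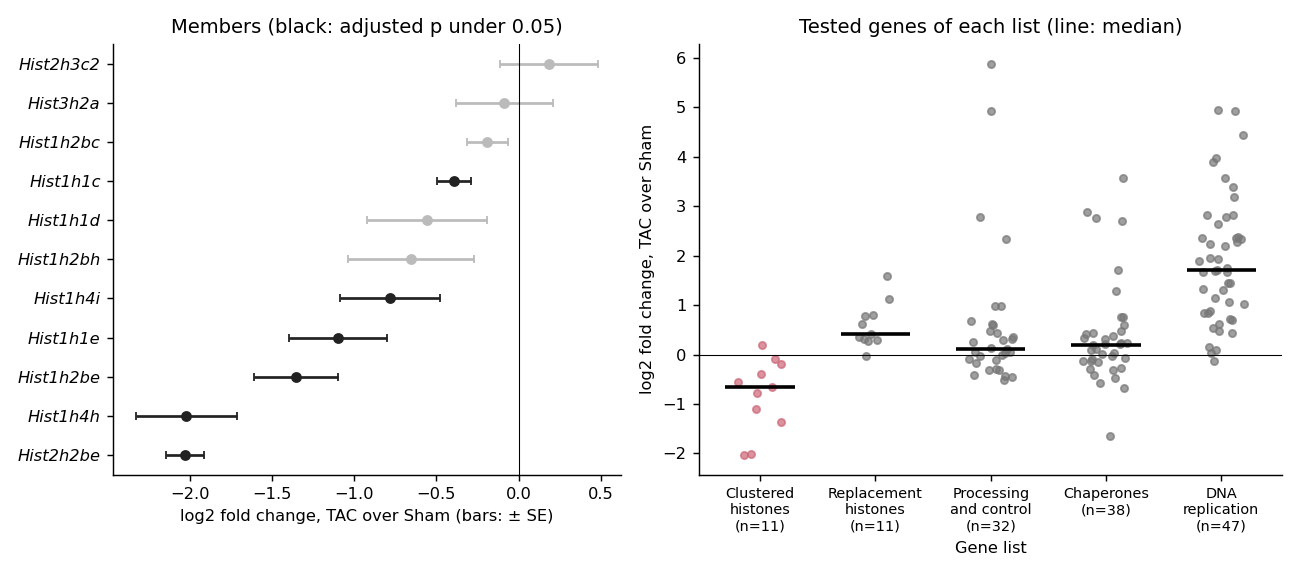
Left, log2 fold change (TAC over Sham) of the 11 members that passed the filter with its SE, black where edgeR's adjusted p is under 0.05. Right, log2 fold changes of every tested gene of the members and of 4 lists, with the median as a line: -0.66 for the members, 0.42 for replacement histones, 0.12 for processing and control, 0.20 for chaperones and 1.72 for DNA replication.

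Markers of some of the tissue's cell types differed between the groups. The sums of the fibroblast, endothelial, erythroid, T-cell, epicardial, ventricular and adipocyte lists overlapped. Among all genes tested 28.9% were higher and 27.9% lower. Of the 12 atrial muscle markers 10 fell and 1 rose. All 10 macrophage markers rose, from a sum of 337 to 593 CPM in Sham to 825 to 1416 in TAC. Fibroblast markers summed to 4902 to 6783 CPM in Sham and 6605 to 13221 in TAC (6 of 10 rose and 2 fell). Smooth muscle and pericyte markers summed to 431 to 567 and 765 to 1092 (5 of 9 rose, 1 fell). Endothelial markers summed to 1127 to 1729 and 1333 to 1977 (5 of 10 rose, 1 fell), and erythroid markers to 136 to 300.3 and 298 to 2556 (all 5 tested rose). B-cell markers summed to 6.94 to 18.0 CPM in Sham and 18.1 to 45.5 in TAC (3 of 3 tested rose), and neutrophil markers to 0.831 to 3.71 and 4.79 to 10.9 (3 of 3 rose). T-cell markers summed to 2.81 to 8.32 CPM in Sham and 2.10 to 6.04 in TAC (1 rose and 1 fell of 4). Schwann cell and neuronal markers summed to 11.6 to 16.4 and 26.9 to 61.8 (1 rose and 2 fell of 4). Epicardial markers summed to 94.9 to 338 CPM in Sham and 143 to 359 in TAC (1 of 6 rose), ventricular markers to 22.7 to 542 and 18.7 to 329 (1 rose and 1 fell of 4) and adipocyte markers to 156 to 227 and 171 to 289.5 (1 rose and 5 fell of 6). No cell type list had a gene at 0 in every library. The mitochondrial share of counts was 16.3% in Sham and 10.99% in TAC (exact permutation p = 0.0079). The part of these shifts in the members' changes was not tested, and in bulk RNA fewer cells of a type and less RNA per cell cannot be told apart.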

How the data were processed

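Left atrial RNA of 5 Sham and 5 TAC libraries was analysed, grouped by sample title. The deposited values are raw counts per gene symbol that the authors had not normalized. The submitters' processing notes name STAR, bcl2fastq and the build mm10, with no versions. What counted the reads, on which annotation and with which strand setting is not given in the sources used here, so reads of overlapping genes on opposite strands cannot be told apart. Tallies that name no gene stayed out of library sizes: reads in no gene averaged 3.12% in Sham and 3.76% in TAC, ambiguous reads 4.31% and 5.79%, unaligned reads 4.12% and 4.62%, and reads aligned to several places 15.8% and 13.4%.

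With edgeR 4.0.16 in R 4.3.3, the quasi-likelihood test (robust, TMM factors, a design of group alone) was run on the 15175 genes kept by filterByExpr at a minimum count of 10. A call is a Benjamini-Hochberg adjusted p under 0.05. Each SE was taken as the absolute log2 fold change over the root of F, and levels are CPM on TMM-scaled library sizes. Library measures were compared by exact permutation over 252 regroupings, for which the smallest p is 0.00794. On simulated data for this comparison, with 15060 genes tested, 35.8% of 1.5-fold, 74.6% of 2-fold and 92.4% of 4-fold changes were recovered and 6.2% of calls were false. The simulation changed 67, 67 and 66 genes by these folds, drawn from all genes kept, while 8616 genes were called in the data. Its shares therefore do not tell how often such changes are found in the real data or in members with few counts. Coordinates, lengths and transcripts came from GENCODE M21, promoters from RefSeq (GRCm38.p6), and no genome sequence was used. Windows of 50 bases were compared with transcripts only.

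The members and lists were chosen with earlier results of these data known. Named genes are all tested members, preset germ-line and polyadenylated members, and from each companion list preset genes and the 3 called genes with the smallest adjusted p in each direction. Members too low to test, their partners, Hist2h4 and Malat1 were named after their values were seen. Alternatives were 3 other scalings (library size alone, upper quartile, DESeq2's size factors), other filters, DESeq2 1.42.0, limma voom (limma 3.58.1), a replicate block, mitochondrial genes left out, a stricter threshold, and 1 library left out at a time. Leaving out the 2 shallow Sham libraries was added after seeing the data. Replicate numbers did not pair the libraries.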

Additional observations from a re-analysis of the deposited data

Results flagged for a closer look

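The 11 tested members, the sum of all members and the sum of those not tested were examined in Sham and in TAC. Of these 26 groups of 5 libraries, 2 held a library far from the others, and chance alone flags about 1 in 20. In Hist1h2be, Sham replicate 3 was at 14.62 CPM and the next Sham library at 7.99, a gap of 0.805 of the group's range against a critical value of 0.71. In Hist1h4i, Sham replicate 3 was again the high library, at 7.385 CPM with the next at 3.60, a gap of 0.794 of the range. Without Sham replicate 3, Hist1h4i was no longer called.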

How the results depend on the processing

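Of 227 values of the 11 tested members under the alternatives, 209 kept direction and call. Direction turned for Hist1h2bc when scaled by library size only (0.17), and for Hist3h2a under that scaling (0.25) and without Sham replicate 1 (0.05), Sham replicate 3 (0.02), TAC replicate 2 (0.02) or TAC replicate 4 (0.02). None of these was called, and leaving out 1 library at a time gave -0.26 to 0.05 for Hist3h2a. Hist1h4i lost its call with library size only (adjusted p = 0.25), upper-quartile factors (0.058), no filter on low counts (0.052), a threshold of 0.01, and without Sham replicate 1 (0.054) or 3 (0.14) or TAC replicates 1 (0.074), 2 (0.10), 3 (0.065) or 4 (0.10). With library size only the summed level differed by -0.17, the processing list counted 24 higher and 0 lower, and 3 chaperone genes were lower; the median of all genes moved with that scaling. With no filter on low counts 7 of 56 members were lower (14.1% of all 27785 genes were), among them Hist1h2bj (-3.13, adjusted p = 0.021) and Hist1h3f (-1.60, adjusted p = 0.030), and 1 was higher, Hist1h3c, with 0 counts in Sham and 13 in TAC (adjusted p = 0.042; 16.6% of all genes were higher). With the DESeq2 Wald test 9 of 39 members were lower and 0 higher (21.7% and 23.3% of 20760 genes), the 6 of the edgeR test with Hist1h2bj, Hist1h3f and Hist3h2ba. Of 525 values of the other named genes, 511 kept direction and call, 11 lost a call and 3 gained one.

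Same-numbered libraries did not deviate together (correlations from -0.04 to 0.08), so the numbers were not taken as pairs. With the replicate number as a block, 8020 genes were called in place of 8616, and 6 members were lower and 0 higher. Members with few counts limit what can be seen, and an uncalled member may still differ. The 35.8% of simulated 1.5-fold changes recovered does not measure this limit. That simulation changed far fewer genes than were called here and drew them from genes of all count levels.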

Other observations

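Hist1h2al, a processed pseudogene of the H2A class on chromosome 13, 51202727 to 51203065 (minus strand), had 0 counts in all 5 Sham libraries and in 3 TAC libraries, 25 in TAC replicate 1 and 35 in TAC replicate 3. Of its windows 32.4% were unique to it, and 32.2% of its exon lies opposite Gm44341. Without it, the members that did not pass the filter summed to 2.56 to 2.81 CPM in Sham and 1.29 to 2.08 in TAC.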
